A study of Mus musculus with 24 samples.

Results

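Hormone release from an islet cell ends in the fusion of a dense-core granule with the plasma membrane, and the 59 genes described here belong to the families whose members dock, prime and fuse it, although some act at other membranes and 1 is annotated as a pseudogene. They were every row, of 14027 genes in the deposited table, whose symbol belongs to the synaptotagmins (Syt, 13 genes), synaptotagmin-like proteins (Sytl, 5), syntaxins (Stx, 13), syntaxin-binding proteins (Stxbp, 8), VAMPs (5), SNAP proteins (4), UNC13 (2), complexins (1), RIMs (2), DOC2 (2) or CAPS (Cadps, 2), together with Nsf and Rph3al. The table lists only genes that the authors kept, so these are not whole families. The libraries came from pancreatic alpha cells (12 libraries) and beta cells (12 libraries) of mice whose strain the labels call triple reporter mouse, without spelling out its alleles. Islets were isolated at 6 zeitgeber times (ZT0, ZT4, ZT8, ZT12, ZT16 and ZT20, in hours), with 2 libraries per cell type and time. All groups share the strain, and age, sex and any treatment are not given in the labels. Each library held 4944982 to 12364190 reads assigned to genes. The 2 libraries of every group differed by more than sampling noise, but the labels do not say whether they came from separate mice, so the p-values below cover the spread between libraries, which may be technical.

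As background, fusion is driven by a bundle of SNARE proteins, in which a VAMP on the granule pairs with a syntaxin and a SNAP protein on the plasma membrane. UNC13 and CAPS proteins prime the granule, and synaptotagmins couple fusion to calcium. Synaptotagmin-like proteins and Noc2 (Rph3al) bind Rab27 or Rab3 on the granule and tether it, and NSF takes the spent SNARE bundle apart.

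The labels were met by the hormone genes. Glucagon (Gcg) averaged 125300 ± 23950 RPKM (read counts scaled to gene length and library size) in alpha cells, against 286.7 ± 519.3 RPKM in beta cells, and insulin (Ins2) averaged 1167 ± 954 RPKM in alpha against 174300 ± 38520 RPKM in beta cells (SD, n = 12 each). Markers of other islet cells moved with the cell type too. All 4 delta cell markers were called higher in alpha cells, at a summed 2328 to 4977 RPKM per alpha library and 634.8 to 1407 RPKM per beta library. All 3 PP cell markers were also higher in alpha cells, at 27830 to 59540 RPKM in alpha libraries and 359.4 to 1730 RPKM in beta libraries. The lists for duct (2 of 2 measured), glial (2 of 2) and stromal cells (4 of 4) were higher in alpha cells as well, at summed levels of at most 78.6 RPKM per library and list. Of 5 neuronal markers 2 were called for alpha cells and 2 for beta cells, at summed levels of 8.90 to 12.4 RPKM in alpha libraries and 39.3 to 54.7 RPKM in beta libraries. None of 4 acinar, 3 endothelial and 3 immune markers was called. The part of these cells in the differences below was not tested. In bulk libraries, fewer cells of a type and less RNA per cell cannot be told apart.

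Promoters are shown for the members with the largest differences in each direction among those above 3 RPKM in at least 1 cell type and in the RefSeq table used, because these 4 genes are the strongest differences for which a window could be shown. Sytl4 (chrX:133981763-133982062, minus strand) and Rims3 (chr4:120854549-120854848, plus strand) were the members most enriched in beta cells. Syt16 (chr12:73997527-73997826, plus strand) and Syt9 (chr7:107370540-107370839, plus strand) were alpha-enriched. Each window runs from 250 bases before to 50 bases after the start in RefSeq on GRCm38.p6, 5′ to 3′, and capitals mark a GC box (GGGCGG on either strand).

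Sytl4: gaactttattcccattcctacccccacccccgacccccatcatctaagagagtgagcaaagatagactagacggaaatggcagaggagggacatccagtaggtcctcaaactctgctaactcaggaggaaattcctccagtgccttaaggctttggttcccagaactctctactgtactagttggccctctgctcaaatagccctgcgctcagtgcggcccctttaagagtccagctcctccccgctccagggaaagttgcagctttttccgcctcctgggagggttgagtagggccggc

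Rims3: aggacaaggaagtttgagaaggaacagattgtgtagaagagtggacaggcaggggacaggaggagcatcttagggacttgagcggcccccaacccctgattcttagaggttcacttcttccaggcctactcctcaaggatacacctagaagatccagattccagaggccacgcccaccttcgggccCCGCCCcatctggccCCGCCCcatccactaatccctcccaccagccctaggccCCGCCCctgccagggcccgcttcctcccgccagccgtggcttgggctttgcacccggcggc

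Syt16: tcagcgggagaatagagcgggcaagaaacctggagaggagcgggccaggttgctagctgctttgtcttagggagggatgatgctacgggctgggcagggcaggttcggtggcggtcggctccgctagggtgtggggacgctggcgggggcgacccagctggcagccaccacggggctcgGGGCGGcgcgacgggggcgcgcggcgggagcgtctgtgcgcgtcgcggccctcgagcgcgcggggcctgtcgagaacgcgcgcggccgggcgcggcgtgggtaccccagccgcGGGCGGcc

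Syt9: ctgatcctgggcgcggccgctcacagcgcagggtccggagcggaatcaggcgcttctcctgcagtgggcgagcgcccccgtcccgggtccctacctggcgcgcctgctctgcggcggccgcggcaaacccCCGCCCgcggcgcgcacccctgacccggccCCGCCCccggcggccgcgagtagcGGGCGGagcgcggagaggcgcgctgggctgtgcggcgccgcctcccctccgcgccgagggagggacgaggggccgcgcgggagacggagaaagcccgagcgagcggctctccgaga

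The Sytl4 window held no GC box and 7 CG dinucleotides, and the Rims3 window held 3 GC boxes and 11 CG dinucleotides. The Syt16 window held 2 GC boxes and 42 CG dinucleotides, and the Syt9 window 3 GC boxes and 49 CG dinucleotides. The median over 32851 mouse promoters of this length was 7 CG dinucleotides. A GC box stood in 35.66% of all promoters and in 62.96% of the 54 promoters that matched 45 members. The E-box CACGTG, the element that CLOCK and BMAL1 bind, was in none of these 4 windows. It stood in 7.15% of all promoters and in 9 of the 54 member promoters (16.67%), those of Cadps2, Nsf, Stx6, Stxbp2, Syt14, Syt6, Unc13b and Vamp4. The 32851 promoters were not limited to the 14027 genes of the deposited table, so the shares are not like for like. A match is a description of letters in a window, not a binding site.

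Most of the fusion machinery differed by less than 2-fold between alpha and beta cells, and the 3 largest differences were those of Sytl4 and Rims3, higher in beta cells, and Sytl2, higher in alpha cells. Of the 59 members, 18 (30.5%) differed at an adjusted p under 0.05 with a fold of at least 2, against 20.7% of all genes tested. Higher in alpha cells were 10 members (11.2% of all genes), and higher in beta cells were 8 (9.54%). All 18 had the same direction at all 6 times, and in 17 of them the 12 alpha and 12 beta values did not overlap, the exception being Syt6. A call at these limits already favours both traits, and their share among all called genes was not counted. Over all genes, called or not, 26% did not overlap. The called members fell in the synaptotagmins (5 higher in alpha, 3 in beta), synaptotagmin-like proteins (2 and 2), syntaxins (3 and 1), RIMs (0 and 1) and DOC2 proteins (0 and 1). None of the 5 VAMPs, 4 SNAP proteins, 8 syntaxin-binding proteins, 2 UNC13 and 2 CAPS genes, and neither Cplx2, Nsf nor Rph3al, was called. Of 10 genes taken as the core of regulated secretion (among them Snap25, Stx1a, Vamp2, Nsf, Unc13a, Cadps, Syt7, Rph3al and Sytl4), 2 were called, Stx1a and Sytl4. The median log2 difference, alpha minus beta, was -0.06 over the members and 0.01 over all genes, and the median size of the difference was 0.50 and 0.42. At a fold of at least 4 were 8 members (13.6%, against 8.78% of all genes), and at a fold of at least 8 were 4 (6.78%, against 4.31%). Differences were fitted on the log2 RPKM values with the authors' prior count, which shrinks the fold of weakly expressed genes, and tested with limma.

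**Figure D1:**
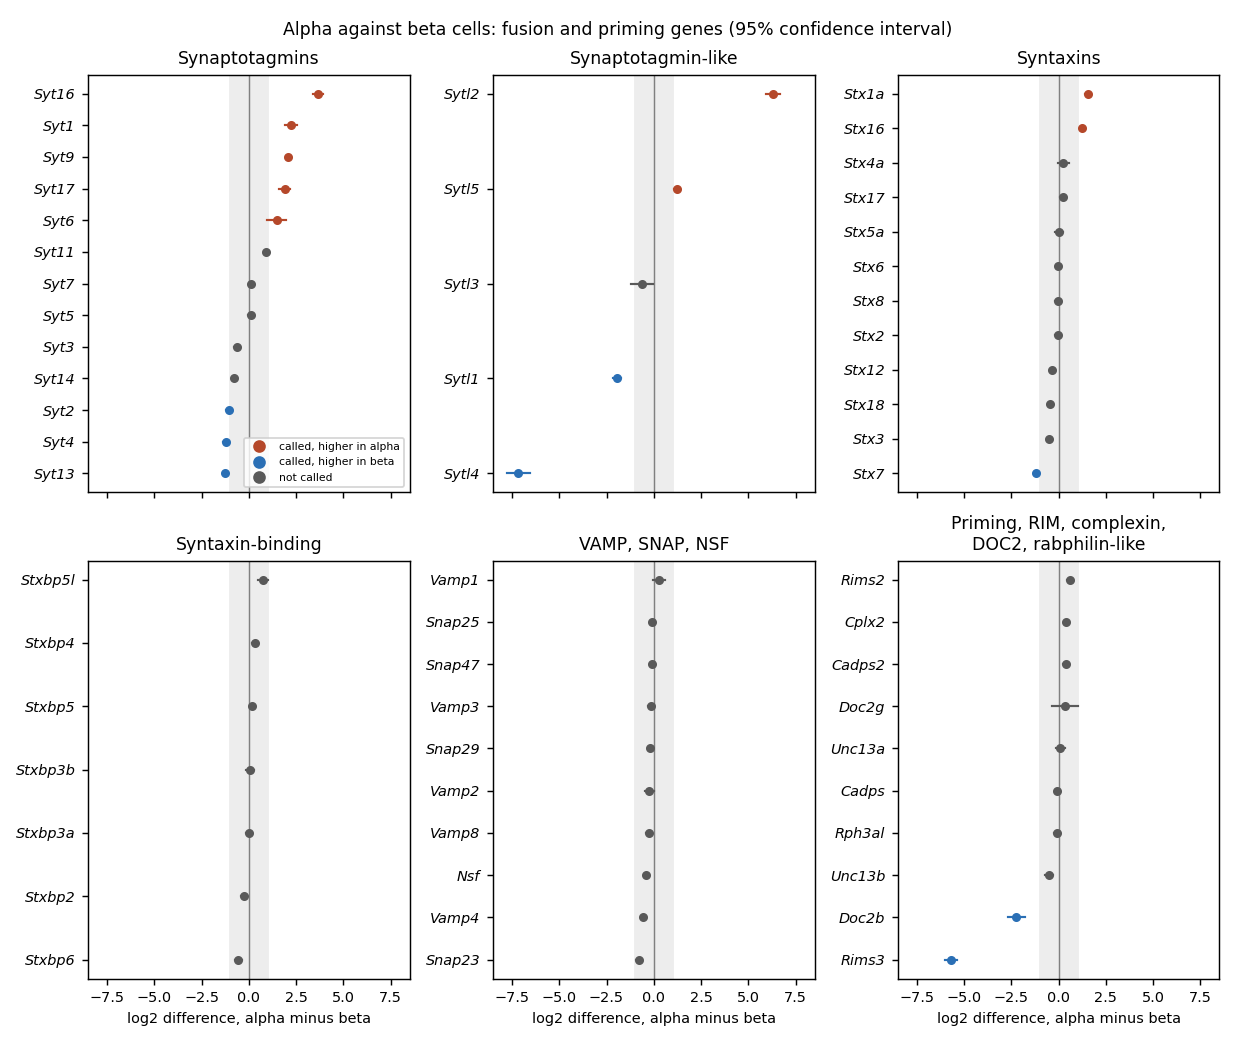
Log2 difference (alpha minus beta, with its 95% confidence interval) of the members named on the vertical axes, by family; red points were called higher in alpha cells, blue points higher in beta cells, and grey points were not called. The grey band marks differences under 2-fold, and the VAMP, SNAP and NSF panel and the syntaxin-binding panel hold no called gene.

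Among the Rab27 effectors, Sytl4 was low in alpha cells and Sytl2 in beta cells, while Sytl5, Sytl1, Sytl3 and Rph3al were measured in both. Sytl4, granuphilin, which docks insulin granules through Rab27a and syntaxin 1a, showed the largest difference of all members. Its lowest, median and highest values were 0.258, 0.784 and 4.14 RPKM in alpha libraries and 104.8, 124.1 and 137.1 RPKM in beta libraries. The groups stood far apart, and limma gave a log2 difference of -7.18 ± 0.29 (SE; adjusted p = 1.1e-14). Sytl2, a Rab27 effector that has been described on the glucagon granules of mouse alpha cells, ran the other way. The gene lies at chr7:90302252-90410719 on the plus strand (GENCODE vM21, GRCm38). Its lowest, median and highest values were 2.86, 4.12 and 5.65 RPKM in alpha libraries (111 to 415 reads) and 0, 0.0163 and 0.0744 RPKM in beta libraries (0 to 5 reads, with 4 libraries at 0). The fitted log2 difference was 6.31 ± 0.18 (SE; limma adjusted p = 1.2e-18), a value that depends on the prior count because beta libraries held 18 reads in all.

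Sytl5, a further Rab27-binding member, was the third most abundant of the 59 in alpha cells. It had 35.4, 54.9 and 72.1 RPKM as lowest, median and highest in alpha libraries and 15.2, 23.8 and 32.4 RPKM in beta libraries, with no overlap, for a log2 difference of 1.22 ± 0.07 (SE; limma adjusted p = 6.0e-13). Sytl1 averaged 3.56 ± 0.56 RPKM in alpha against 14.4 ± 3.28 RPKM in beta cells (SD, n = 12 each), a log2 difference of -1.96. Sytl3 averaged 0.935 RPKM in alpha against 1.53 RPKM in beta cells and was not called. The SDs over 12 libraries include the spread between times of day. Rph3al (Noc2), a Rab3 and Rab27 effector needed for hormone secretion, had 17.1, 21.8 and 27.7 RPKM as lowest, median and highest in alpha libraries and 18.5, 23.6 and 26.9 RPKM in beta libraries. These overlapped, and the log2 difference was -0.11, with a 95% interval of -0.23 to 0.02.

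As shares of the summed Sytl level (RPKM, per length), Sytl5 made up 84.4% ± 3.76 in alpha libraries and 14.4% ± 3.89 in beta libraries (SD, n = 12 each). Sytl4 made up 1.73% ± 1.79 in alpha libraries and 75.8% ± 5.05 in beta libraries. The Sytl sum itself was 62.9 ± 11.6 RPKM in alpha against 161.4 ± 4.73 RPKM in beta cells, with ranges of 44.3 to 81.7 and 154.8 to 168.2 RPKM that did not overlap. In the syntaxins, by contrast, the sums lay close together, at 151.4 ± 6.49 RPKM in alpha against 164.7 ± 2.57 RPKM in beta cells.

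**Figure D2:**
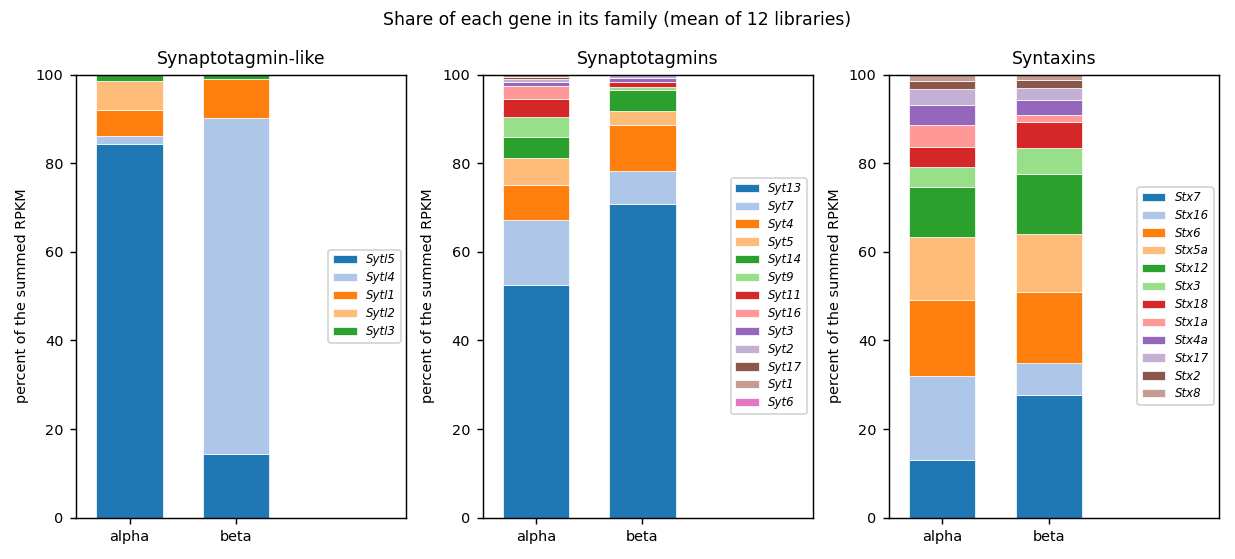
Share of each gene named in the legends in the summed RPKM of its family (percent, mean of 12 libraries per bar), for the synaptotagmin-like proteins, synaptotagmins and syntaxins in alpha (left bar) and beta cells (right bar). Sytl5 fills 84.4% of the alpha bar and Sytl4 75.8% of the beta bar, while Syt13 leads both synaptotagmin bars at 52.4% and 70.8%.

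Synaptotagmins hold tandem C2 domains, and some of them bind calcium while others cannot. Syt13, an atypical member that lacks the calcium-coordinating residues, was the most abundant of the 59 genes in both cell types. It averaged 167.8 ± 14.9 RPKM in alpha against 406.8 ± 38.1 RPKM in beta cells (SD, n = 12 each; log2 difference -1.28 ± 0.05, SE; limma adjusted p = 7.8e-16). Syt4, whose first C2 domain carries a substitution at a calcium-binding residue, averaged 25.3 ± 2.39 RPKM in alpha against 59.4 ± 11.9 RPKM in beta cells, a log2 difference of -1.21. Syt2, a fast calcium sensor of synapses, averaged 2.01 ± 0.33 RPKM in alpha against 4.23 ± 0.54 RPKM in beta cells, a log2 difference of -1.07.

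The 5 synaptotagmins higher in alpha cells were led by Syt16, an atypical member without calcium binding. Its lowest, median and highest values were 4.75, 9.41 and 16.6 RPKM in alpha libraries and 0.479, 0.721 and 0.911 RPKM in beta libraries. The groups did not overlap, and limma gave a log2 difference of 3.65 ± 0.13 (SE; adjusted p = 4.9e-17). Syt9, a calcium sensor that has been placed on insulin granules in cultured beta cells, had 11.3, 14.4 and 18.8 RPKM in alpha libraries and 2.99, 3.40 and 4.22 RPKM in beta libraries, again with no overlap. Its log2 difference was 2.08 ± 0.06 (SE; limma adjusted p = 4.9e-19). Syt1, the fast calcium sensor of neurons, had 1.01, 1.52 and 1.93 RPKM in alpha libraries and 0.117, 0.312 and 0.409 RPKM in beta libraries, with no overlap and a log2 difference of 2.23 ± 0.15 (SE; limma adjusted p = 8.4e-12). Syt17 and Syt6 were called as well, with means of 1.59 and 0.183 RPKM in alpha against 0.334 and 0.0409 RPKM in beta cells.

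Syt7, the calcium sensor with an established role in both insulin and glucagon release, had 41.4, 45.9 and 54.5 RPKM as lowest, median and highest in alpha libraries and 33.1, 42.7 and 51.4 RPKM in beta libraries. The groups overlapped, and the log2 difference of 0.12 had a 95% interval of 0.02 to 0.23 (limma adjusted p = 0.035), below the fold of 2. Syt5 and Syt11, with means of 19.4 and 12.5 RPKM in alpha against 18.0 and 6.64 RPKM in beta cells, were not called, although the Syt11 values did not overlap. Doc2b, a calcium sensor with high affinity that takes part in insulin secretion, was low in both cell types. Its lowest, median and highest values were 0.0538, 0.124 and 0.279 RPKM in alpha libraries (3 to 14 reads) and 0.424, 0.814 and 1.42 RPKM in beta libraries (20 to 68 reads), with no overlap and a log2 difference of -2.24 ± 0.22 (SE; limma adjusted p = 4.9e-09). Doc2g was not called, and 63.5% of its exon bases are shared with the gene Gm49405 on the same strand, so its counts are uncertain.

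**Figure D3:**
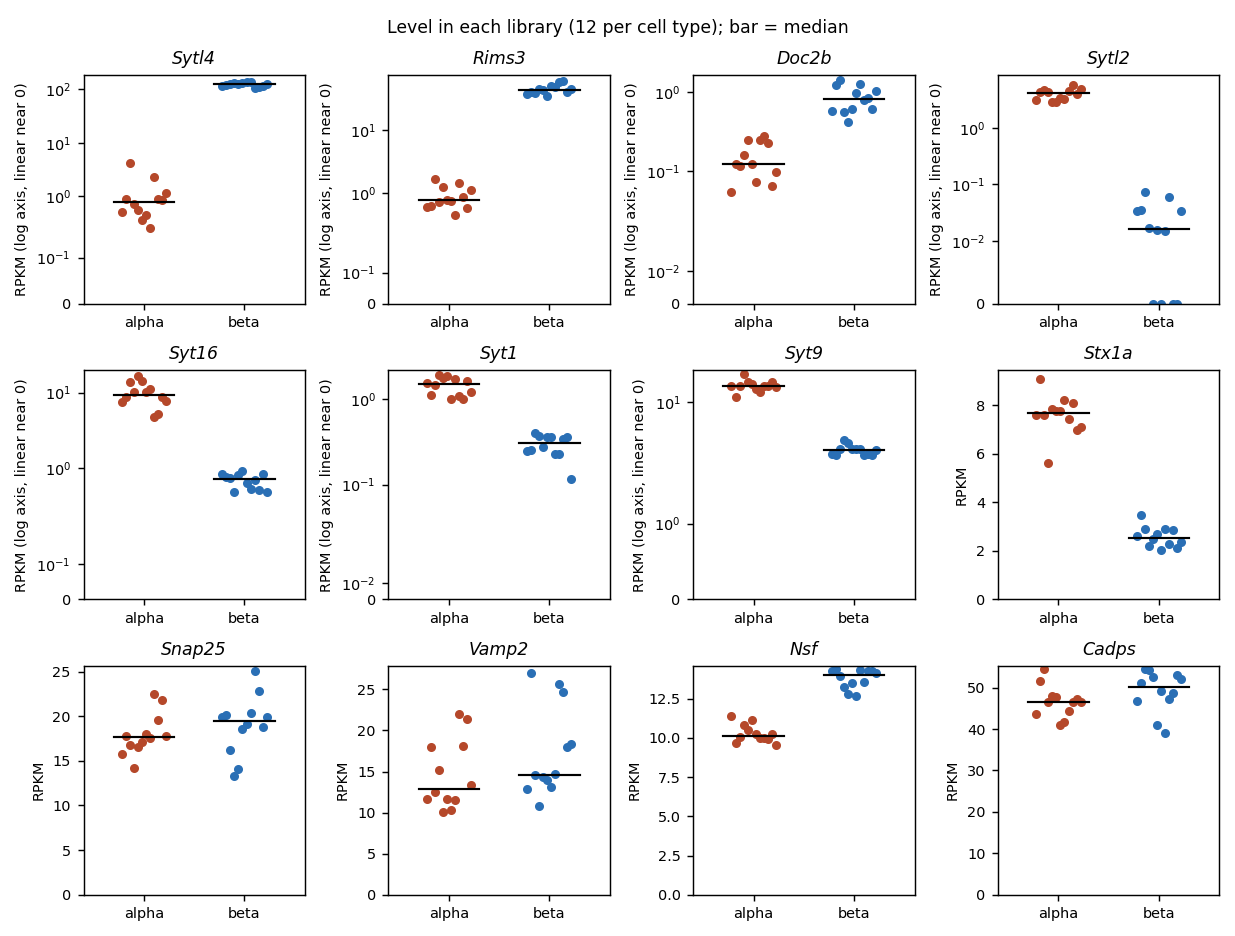
Level (RPKM) of 12 members in each of the 12 alpha (left, red) and 12 beta libraries (right, blue), with the median as a bar; the panels from Sytl4 to Syt9 have a log axis that is linear near 0, those from Stx1a on a linear axis. Alpha and beta values do not overlap for Sytl4, Rims3, Doc2b, Sytl2, Syt16, Syt1, Syt9, Stx1a and Nsf, while Snap25, Vamp2 and Cadps overlap.

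Stx1a, the plasma membrane syntaxin of regulated secretion, had 5.61, 7.67 and 9.09 RPKM as lowest, median and highest in alpha libraries and 2.02, 2.54 and 3.48 RPKM in beta libraries. The groups did not overlap, and limma gave a log2 difference of 1.54 ± 0.07 (SE; adjusted p = 1.1e-14).

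Snap25, the SNAP protein of regulated secretion, had 14.2, 17.7 and 22.4 RPKM as lowest, median and highest in alpha libraries and 13.3, 19.5 and 25.1 RPKM in beta libraries. The ranges lay over each other, and the log2 difference of -0.07 had a 95% interval of -0.19 to 0.05 (limma adjusted p = 0.26). Vamp2, the main VAMP of insulin granules, had 10.02, 12.9 and 22.1 RPKM in alpha libraries and 10.9, 14.6 and 27.1 RPKM in beta libraries, with a log2 difference of -0.23 and a 95% interval of -0.46 to -0.01 (limma adjusted p = 0.054). Vamp3 and Vamp8, which serve other fusion steps and can act in regulated secretion, averaged 18.3 and 19.7 RPKM in alpha against 20.5 and 23.6 RPKM in beta cells. Snap23, a broadly expressed relative of Snap25, averaged 6.27 ± 0.92 RPKM in alpha against 10.8 ± 1.62 RPKM in beta cells. Its values did not overlap, but its log2 difference of -0.77 was below the fold of 2.

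Syntaxins of inner membranes differed in both directions. Stx16, of the trans-Golgi network, averaged 28.6 ± 3.65 RPKM in alpha against 12.1 ± 1.28 RPKM in beta cells (SD, n = 12 each; log2 difference 1.24), and was the sixth most abundant member in alpha cells. Stx7, of late endosomes, averaged 19.7 ± 1.72 RPKM in alpha against 45.5 ± 6.92 RPKM in beta cells (log2 difference -1.19). Stx16 made up 18.9% of the summed syntaxin level in alpha cells, against 7.33% in beta cells, and Stx7 made up 13.1% in alpha cells, against 27.6% in beta cells. The Golgi syntaxins Stx5a and Stx6 averaged 21.7 and 25.9 RPKM in alpha against 21.8 and 26.3 RPKM in beta cells.

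Of the Stxbp, UNC13, CAPS, complexin and RIM genes and Nsf, Rims3 alone was called. Nsf, the ATPase that separates SNAREs after fusion, had 9.52, 10.2 and 11.4 RPKM as lowest, median and highest in alpha libraries and 12.7, 14.0 and 14.4 RPKM in beta libraries, with no overlap, at a log2 difference of -0.42 ± 0.04 (SE; limma adjusted p = 2.4e-09). Stxbp2 and Stxbp3a, which encode syntaxin-binding proteins of the Sec1/Munc18 family, averaged 10.6 and 5.56 RPKM in alpha against 12.7 and 5.58 RPKM in beta cells. Stxbp3b is annotated as a processed pseudogene of Stxbp3a, so how reads were divided between the pair is uncertain. Counting all members, 25 of 59 (42.4%, against 26% of all genes) had alpha and beta values that did not overlap, 10 higher in alpha and 15 higher in beta cells, and 8 of these 25 were not called. With no limit on the fold, 44 members (74.6%) had an adjusted p under 0.05, against 74.9% of all genes, 19 of them higher in alpha (37.8% of all genes) and 25 higher in beta cells (37.2%).

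Of the priming factors, Unc13a (Munc13-1) had 7.68, 11.2 and 18.7 RPKM as lowest, median and highest in alpha libraries and 7.08, 11.2 and 19.2 RPKM in beta libraries. The groups overlapped fully, with a log2 difference of 0.07 and a 95% interval of -0.17 to 0.31 (limma adjusted p = 0.58). Cadps (CAPS-1), which primes dense-core granules, had 41.1, 46.6 and 54.4 RPKM in alpha libraries and 39.0, 50.2 and 54.5 RPKM in beta libraries, with a log2 difference of -0.07 and a 95% interval of -0.18 to 0.03 (limma adjusted p = 0.20). Cplx2, a complexin that binds the SNARE bundle, averaged 134.8 ± 13.8 RPKM in alpha against 102.0 ± 14.5 RPKM in beta cells, a log2 difference of 0.41.

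The RIM genes, which encode scaffolds of release sites, split between the cell types. Rims3, the short RIM3 form, had 0.450, 0.764 and 1.66 RPKM as lowest, median and highest in alpha libraries and 34.6, 43.9 and 59.7 RPKM in beta libraries. The groups did not overlap, and limma gave a log2 difference of -5.68 ± 0.15 (SE; adjusted p = 5.7e-19). Rims2, which binds Rab3 and takes part in insulin secretion, averaged 24.7 ± 4.60 RPKM in alpha against 16.4 ± 2.37 RPKM in beta cells (log2 difference 0.58), below the fold of 2. Rims3 made up 3.60% of the summed level of both RIM genes in alpha cells, against 73.0% in beta cells.

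The low values of the strongest members were read beside the hormone RNA of the other cell type. Ins2 in alpha libraries stood at 0.162% to 2.09% of its mean beta level (median 0.490%). Sytl4 stood at 0.211% to 3.38% (median 0.641%), and its highest values were in replicate 1 of ZT4 and replicate 1 of ZT16, the same alpha libraries as for Ins2. Without replicate 1 of ZT4 of alpha cells the log2 difference of Sytl4 was -7.38. Rims3 stood at 1.01% to 3.71% (median 1.71%), also highest in replicate 1 of ZT4 and then in replicate 1 of ZT16. Doc2b stood at 6.26% to 32.4% (median 14.4%). Both were above the Ins2 share in each of the 12 alpha libraries. Gcg in beta libraries stood at 0.0293% to 1.52% of its mean alpha level (median 0.0977%), highest in replicate 1 of ZT4. Sytl2 stood at 0% to 1.86% (median 0.409%) in beta libraries. It was highest in the same library, but at 5 reads against 4 in replicate 1 of beta ZT16. Syt16 and Syt9 stood at 4.84% to 9.21% and 20.6% to 29.02% of their mean alpha levels in beta libraries, above the Gcg share in each of the 12. Sst stood at 18.8% to 41.6% of its alpha level in beta libraries. How much of the low Sytl4, Rims3 and Sytl2 signal comes from the other cell type was not tested.

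**Figure D4:**
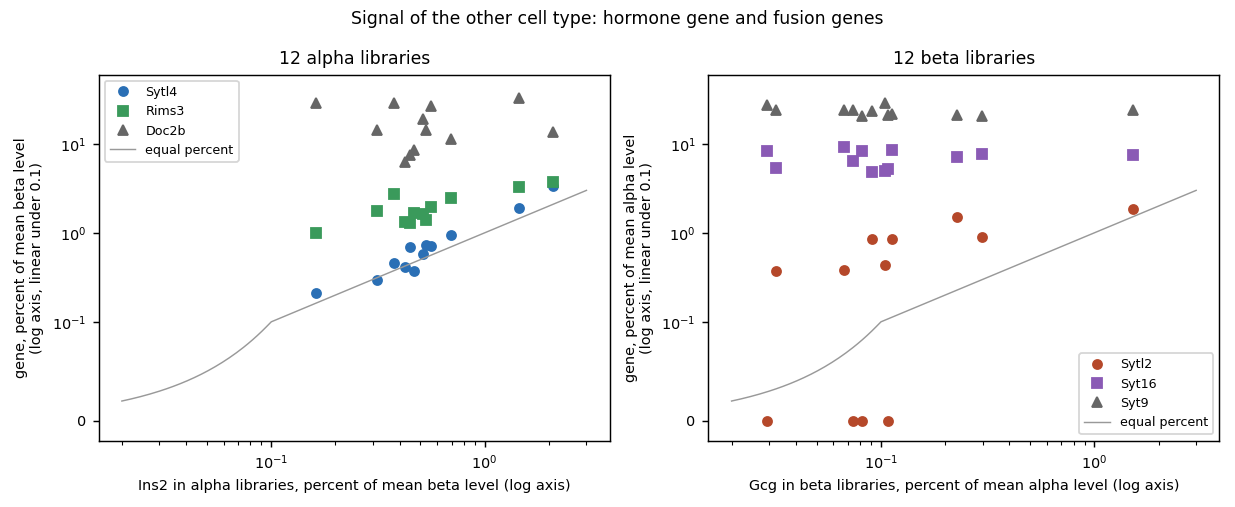
Level of a member in the cell type where it is low, as a percent of its mean in the other (vertical, log axis, linear under 0.1), against the same percent for the hormone gene (horizontal, log axis); left, Sytl4, Rims3 and Doc2b against Ins2 in the 12 alpha libraries, and right, Sytl2, Syt16 and Syt9 against Gcg in the 12 beta libraries. Sytl4 lies near the line of equal percent and Rims3, Doc2b, Syt16 and Syt9 lie above it in every library.

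Of 63 other exocytosis genes (among them Rab3 and Rab27 proteins, their regulators, SV2 proteins, active-zone scaffolds and exocyst subunits), 18 were called, against 20.7% of all genes, 8 higher in alpha and 10 higher in beta cells. The largest differences were in Otof (otoferlin, a calcium sensor of the inner ear; log2 difference 5.82 ± 0.21), Rab27b (5.43 ± 0.24), Rab3c (4.98 ± 0.11), Sv2b (a vesicle glycoprotein; 4.16 ± 0.10) and Rab3il1 (an exchange factor for Rab3; 2.91 ± 0.20), all higher in alpha cells (SE). Mlph (melanophilin, a Rab27 effector) was higher in beta cells, at -4.99 ± 0.28 (SE). The median log2 difference of this list was -0.10.

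Over the day, 5 members (8.47%) had a 24 h rhythm in alpha cells, against 9.66% of all genes, and 11 (18.6%) in beta cells, against 16% of all genes, by a cosine fit in limma at an adjusted p under 0.05. At an unadjusted p under 0.05 were 22 members in alpha (29.7% of all genes) and 21 in beta cells (34.3%). Syt5, Unc13a and Unc13b were rhythmic in both (5.08%, against 4.15% of all genes). Stxbp5l and Syt16 passed in alpha cells alone, and Snap25, Syt4, Sytl5, Cplx2, Stx7, Stx17, Stx18 and Syt7 in beta cells alone, which does not show a difference between the cell types. The difference of rhythm between alpha and beta cells passed in 0 members (0.0713% of all genes), with 5 members at an unadjusted p under 0.05 (7.66% of all genes). The lowest were Stxbp5l (limma adjusted p = 0.27), Syt4 (limma adjusted p = 0.30) and Cplx2 (limma adjusted p = 0.48). Fitted peaks between ZT15 and ZT22 were found in 4 of the 5 rhythmic members in alpha cells and in 8 of the 11 in beta cells, while 37.2% and 44.8% of all rhythmic genes peaked there. This window was not set in advance, and it encloses the members' own later peaks, from ZT15.6 (Syt7, beta) to ZT21.4 (Syt5, alpha). The comparison is therefore a description and not a test.

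These counts moved with single libraries. How the share of all genes moved with them was not counted, so no change particular to the members can be read. The alpha count was 1 without replicate 1 of alpha ZT8, 3 without replicate 2 of alpha ZT8, replicates 1 or 2 of alpha ZT12, or replicate 1 of alpha ZT16 or ZT20, 8 without replicate 1 of alpha ZT0, and 10 without replicate 1 of alpha ZT4 or replicate 2 of beta ZT0. The beta count was 5 without either beta ZT16 library, 6 without replicate 2 of beta ZT4, 7 without replicate 1 of beta ZT8 or replicate 2 of beta ZT12, and 17 without replicate 2 of beta ZT0.

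Syt5, a calcium-binding synaptotagmin of dense-core vesicles, gave the firmest rhythm. In alpha cells its 2 libraries had 23.7 and 21.2 RPKM at ZT0, 15.9 and 21.8 at ZT4, 13.3 and 16.6 at ZT8, 14.5 and 13.3 at ZT12, 20.9 and 21.2 at ZT16, and 26.1 and 24.0 at ZT20. In beta cells they had 21.4 and 19.3 RPKM at ZT0, 14.5 and 16.4 at ZT4, 13.3 and 15.1 at ZT8, 14.6 and 16.3 at ZT12, 19.1 and 20.5 at ZT16, and 23.2 and 22.2 at ZT20. Both cell types were lowest at ZT8 or ZT12 and highest at ZT20. The fitted peak was ZT21.4 ± 0.50 h in alpha cells and ZT20.1 ± 0.60 h in beta cells (SE), with peak-to-trough folds of 1.79 and 1.62 (limma adjusted p = 0.00031 and 0.0010).

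Syt4 in beta cells had mean levels of 61.2, 48.5, 50.2, 51.1, 72.7 and 72.8 RPKM at ZT0, ZT4, ZT8, ZT12, ZT16 and ZT20. It was high at ZT16 and ZT20, with a fitted peak at ZT18.9 ± 0.68 h (SE) and a fold of 1.58 (limma adjusted p = 0.0027). In alpha cells its means ran from 22.5 to 26.9 RPKM. Sytl5 in beta cells had 26.4, 20.9, 18.0, 15.2, 29.7 and 28.5 RPKM at the 6 times, lowest at ZT12, with a fold of 1.85 (limma adjusted p = 0.0063). Its alpha means were 58.0, 58.5, 44.3, 38.2, 57.3 and 63.5 RPKM, also lowest at ZT12 (limma adjusted p = 0.052). Snap25 was highest at ZT16 in both, at 21.03 RPKM in alpha against 23.97 RPKM in beta cells, and passed in beta cells (limma adjusted p = 0.0099) but not in alpha cells (limma adjusted p = 0.073).

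Stxbp5l (tomosyn-2), an inhibitor of SNARE assembly, had means of 5.25, 4.78, 3.49, 3.93, 7.32 and 7.26 RPKM in alpha cells at the 6 times, highest at ZT16 and ZT20 (fitted peak ZT19.6 ± 0.78 h, SE; fold 2.05; limma adjusted p = 0.013). In beta cells its means ran from 2.76 to 3.36 RPKM, and single libraries from 2.33 to 4.38 RPKM, both of these at ZT4. Syt16 in alpha cells had means of 8.11, 11.98, 15.4, 10.7, 4.99 and 8.17 RPKM, the reverse phase, highest at ZT8 and lowest at ZT16 (fitted peak ZT6.49 ± 0.76 h, SE; fold 2.37; limma adjusted p = 0.011). Cplx2 in beta cells peaked at ZT12, at 127.8 RPKM against 87.4 RPKM at ZT20. Stx7 and Stx17 peaked at ZT6.75 and ZT8.87 in beta cells, with folds of 1.36 and 1.35, and Stx18 and Syt7 at ZT18.3 and ZT15.6, with folds of 1.39 and 1.29 (limma adjusted p of 0.025 to 0.045 for the 4). Of 35 alternative settings, the call was lost in 13 for Stx7, 17 for Stx17, 4 for Stx18 and 21 for Syt7.

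Unc13a and Unc13b, the priming factors, were high at ZT16 in both cell types. Unc13a had means of 13.5, 11.2, 7.83, 9.02, 18.5 and 16.01 RPKM in alpha cells and 14.5, 9.91, 8.32, 7.98, 17.7 and 14.6 RPKM in beta cells at the 6 times. The fitted folds were 2.13 in alpha and 2.15 in beta cells (limma adjusted p = 0.037 and 0.025). Unc13b had 8.89 RPKM in alpha against 13.5 RPKM in beta cells at ZT16, against 4.22 and 5.88 RPKM at ZT8.

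The 2 libraries of ZT0 disagreed on these genes in both cell types. Unc13a had 9.15 and 17.9 RPKM in replicates 1 and 2 of alpha ZT0, and 9.79 and 19.2 RPKM in those of beta ZT0. Unc13b had 4.41 and 7.61 RPKM in alpha ZT0 and 6.55 and 11.6 RPKM in beta ZT0. Malat1, a nuclear noncoding RNA looked at after the values were seen, had 1476 and 2640 RPKM in the same alpha libraries and 902.9 and 2207 RPKM in the same beta libraries. Syt5 did not follow it, with 23.7 and 21.2 RPKM in alpha ZT0 and 21.4 and 19.3 RPKM in beta ZT0. Malat1 also varied with time, from 1046 to 3158 RPKM over alpha libraries and from 624.2 to 2468 RPKM over beta libraries. Its replicates 1 and 2 lay apart at ZT4 as well, with 2230 and 1499 RPKM in alpha and 1594 and 624.2 RPKM in beta cells. Unc13a in these libraries had 10.95 and 11.55 RPKM in alpha cells but 12.7 and 7.14 RPKM in beta cells. With log2 Malat1 added to the fit as a covariate, Syt5 kept its rhythm in alpha cells (limma adjusted p = 0.00043) and in beta cells (limma adjusted p = 0.0019), and Syt4, Sytl5, Cplx2 and Stx17 kept theirs in beta cells, where Stxbp2 passed as well. Of all genes, 2.49% then passed in alpha and 6.91% in beta cells. Unc13a and Unc13b did not pass in either cell type (limma adjusted p of 0.27 to 0.49), nor did Stxbp5l in alpha cells (limma adjusted p = 0.14). Calls were also lost by Syt16 in alpha cells (limma adjusted p = 0.056) and Stx7 in beta cells (limma adjusted p = 0.65). The main fit had placed their peaks at ZT6.49 and ZT6.75. Snap25, Stx18 and Syt7 in beta cells did not pass either (limma adjusted p of 0.10 to 0.19). The difference of rhythm then passed in Stxbp5l (limma adjusted p = 0.031), and in 0.756% of all genes. Malat1 itself was high at ZT16, with 3158 and 2819 RPKM in the alpha and 2468 and 2157 RPKM in the beta libraries, when Unc13a, Unc13b and, in alpha cells, Stxbp5l were highest. The covariate therefore also takes up a rhythm of that phase, and the lost calls do not show that these genes lack one. Without replicate 2 of ZT0 in both cell types, 10 members were rhythmic in alpha and 17 in beta cells. The share of all genes under this setting was not counted, so the rise cannot be set against all genes.

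**Figure D5:**
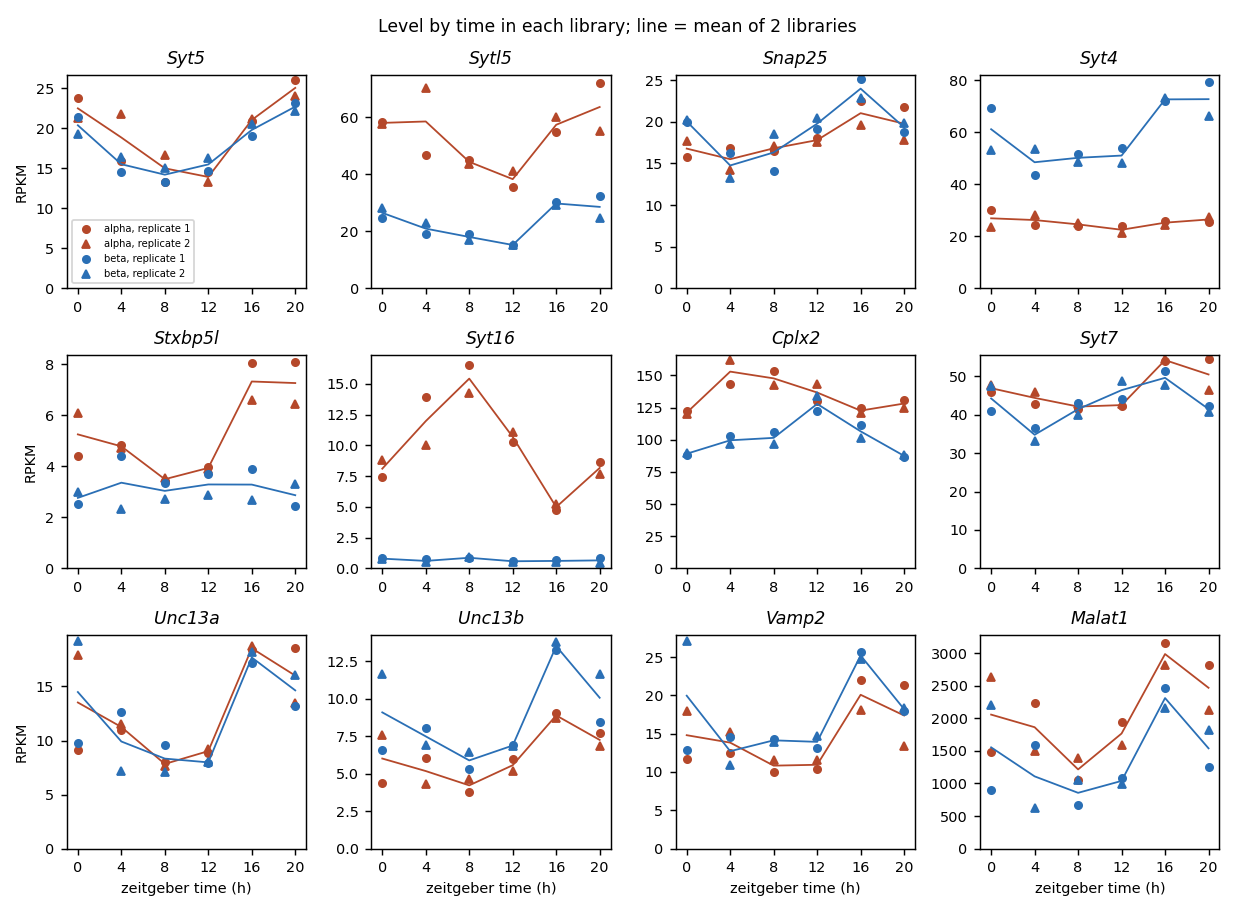
Level (RPKM) by zeitgeber time (h) of 11 members and of Malat1 (last panel) in alpha (red) and beta cells (blue); circles are replicate 1, triangles replicate 2, and lines join the means of 2 libraries. Syt5 falls to its lowest at ZT8 to ZT12 in both cell types, Syt16 runs the other way in alpha cells, and the 2 ZT0 libraries of Unc13a, Unc13b, Vamp2 and Malat1 lie apart.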

How the data were processed

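RNA was sequenced from 24 libraries, made with a stranded kit from total RNA depleted of ribosomal RNA (protocol in the labels). The deposited values are log2 RPKM, made by the authors with STAR, edgeR and the build mm10, per the submitters' processing notes; no source used here gives versions or the strand setting. From the values themselves, each holds a prior count of about 2 reads scaled to the library, which compresses low genes. Whole reads were recovered for 14027 of 14027 genes (tolerance 0.0001), giving totals of 4944982 to 12364190 reads per library and RPKM without the prior.

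Cell types were compared with limma 3.58.1 in R 4.3.3 (trend and robust estimation) on the log2 values, with time as a factor of 6 levels. Rhythms were tested with a 24 h cosine per cell type in 1 model, by an F-test of its 2 terms. The p-values were adjusted by Benjamini-Hochberg over all 14027 genes, with calls at 0.05 and, between cell types, a fold of at least 2. Voom on the recovered reads (TMM) called 3009 genes against 2903. The tests were tried on simulated data of independent libraries, a setting that does not cover libraries sharing a source. Some members are counted but not reported here singly. Of the other members, those called at a fold of at least 4 or among the 10 core genes have lowest, median and highest values. Rhythmic members, and the 3 with the lowest p of the rhythm difference, have levels by time or fitted peaks. In the text every library is listed only for Syt5. Gene positions are those of GENCODE vM21 on GRCm38, and promoters those of RefSeq. The members and lists were chosen with earlier results of these data known, and Malat1 was chosen after its values were seen. The window of peak times was not set in advance. Alternatives are given in the closing section.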

Additional observations from a re-analysis of the deposited data

How the results depend on the processing

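The 18 calls between cell types (10 higher in alpha, 8 in beta) stayed at 18 to 18 when any 1 library was left out (10 to 10 and 8 to 8), with voom under TMM or median-of-ratios scaling, without trend and robust estimation, and without replicate 2 of ZT0 or replicate 1 of ZT4 in both cell types. With log2(RPKM + 1), 12 were called (6 higher in alpha, 6 in beta), and 1602 of all genes against 2903 in the main fit. Doc2b, Syt1, Syt17, Syt2 and Syt6 were among the members that fell under the fold of 2. With log2(RPKM + 0.1) 17 were called (9 and 8), and 2774 of all genes. With a mean log2 RPKM above 0 as a filter 12 were called (5 and 7), since the filter leaves out low members. Of all genes kept by the filter, 1755 were called. With any fold 44 passed. The other exocytosis genes gave 18 to 19 calls with 1 library left out and 11 under the filter. No direction reversed. Rhythms in alpha numbered 1 to 10, and in beta 5 to 17, with 1 library left out, and the difference of rhythm 0 to 0. Under the alternative rhythm settings of this section the share of all genes was counted only with the Malat1 covariate. Rhythm in alpha gave 8 with log2(RPKM + 1), 2 with time as a factor and 1 with the Malat1 covariate. Rhythm in beta gave 6 with time as a factor and 6 with the Malat1 covariate, and the difference of rhythm 1 with that covariate. Without replicate 2 of ZT0 in both cell types alpha gave 10 and beta 17, and without replicate 1 of ZT4 in both alpha gave 11 and beta 13; both and the covariate were chosen after seeing the data. The cause was not tested. Syt5 in both cell types, and Syt4 and Sytl5 in beta cells, passed in 35 of 35 settings, Unc13a in alpha cells in 26 and Syt7 in 14. Replicate numbers were checked for pairing: the deviations of replicate 1 and 2 in alpha and beta correlated at 0.704, 0.52, 0.448, 0.153, 0.151 and 0.025 from ZT0 to ZT20. Of these 6 values 5 were over 0.1 and that of ZT20 was not. Over all 66 pairs of groups, these 6 included, 16 were over 0.1, and the 0.704 of ZT0 was the highest. The numbers were not taken to pair samples, because the match did not hold at every time. Libraries of 1 number at 1 time may still share a source, with the highest correlations at ZT0, ZT4 and ZT8, and the tests treat them as independent. Between cell types, a fit with each time and replicate number as a block gave 18 calls (10 and 8) and 18 other exocytosis genes. The rhythm fits held only 1 term for replicate number, common to all times. They gave rhythms in 5 members in alpha and 9 in beta, and 0 differences, and do not account for a source shared at 1 time. Depth limits Sytl2, at 18 reads over all beta libraries.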
